A study of Mus musculus with 4 samples.

Results

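The cytosolic ribosome is built from ribosomal RNA and a set of proteins, each encoded by its own gene, and the mRNAs of these proteins are among the most abundant in a growing cell. The gene set described here holds every row of the deposited gene lists whose symbol begins with Rpl (large subunit) or Rps (small subunit) followed by a digit, without pseudogene rows and without the S6 kinase genes, plus the stalk genes Rplp0, Rplp1 and Rplp2 and the laminin receptor gene Rpsa. It has 86 members among the 31053 genes of the files. The rule uses gene symbols and no measured value, but it was chosen with earlier results of these data known. Of the 86, 83 had enough UMIs (unique molecular identifiers, the counted molecules) to be tested in every comparison. The other 3 are the copies Rpl10l, Rpl3l and Rpl39l, known from testis and muscle, with 0, 1 and 5 UMIs over all epithelial cells. Rows Rps19bp1 and Rpl7l1 match the symbol rule, but Rps19bp1 encodes a binding partner of a ribosomal protein and Rpl7l1 a relative of Rpl7 that acts in ribosome assembly, so they were kept as members and named apart.

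Single crypt cells of the small intestine were profiled with 10x 3′ chemistry in 4 libraries, each a pool of 3 to 4 female mice of 8 to 12 weeks. All recipients were C57BL/6 mice that had been lethally irradiated and given a bone marrow transplant, and were sampled on day 7. The 2 syngeneic libraries had C57BL/6 donors, and the 2 allogeneic libraries, labelled as having graft-versus-host disease, had BALB/c donors. No untreated or non-irradiated group was analysed here, so irradiation and transplantation are shared by all 4 libraries. The pools are separate groups of mice, and a single pool shows only the mean of its mice. Total counts ranged from 14961466 to 26677842 UMIs per library, and 12169 of 16565 barcodes were kept. The share of barcodes above the mitochondrial limit of 20% of UMIs was 27.2% in allogeneic 1 and 11.2% to 14.9% in the other libraries. The pairs of libraries shared few barcodes, between 2 and 7.

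Each cell was gated by the class whose marker genes had the highest mean score, and no marker was a ribosomal protein gene. The labelled cell type is crypt epithelium, and 11456 of the kept cells were in an epithelial class or in no class. These include 901 stem-gated cells (markers such as Lgr5 and Ascl2), 3148 enterocyte-gated cells, 1024 Paneth-gated cells and 2395 epithelial cells without a class. T-gated cells numbered 11, 32, 213 and 191 in syngeneic 1, syngeneic 2, allogeneic 1 and allogeneic 2, so the syngeneic T-cell values rest on 43 cells. A gate is a range of a score and not a fixed type, and 964 kept cells lay within 0.1 of the gate. Throughout, 4 values in a row follow this order of libraries. A level is given as CPM, the UMIs of a gene per 1000000 UMIs of that class in that library. Since CPM is not divided by transcript length and the 3′ kit counts ends of molecules, levels are compared between cells and not between genes.

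Ribosomal protein mRNAs are known for a run of pyrimidines (C or T) at their very 5′ end that begins with C, the TOP element. Through it, their translation follows the activity of the kinase mTOR, with Larp1 binding the cap and the run. Crypt stem cells and their dividing daughters are known to depend on ribosome production, while enterocytes are the absorptive cells that leave the crypt. RefSeq start sites of build GRCm38.p6 were matched to 66 of the 86 members. The window from 15 bases before to 15 bases after each start was searched on the coding strand for a run of at least 5 pyrimidines beginning with C. It was found in 40 of the 66 members (60.6%), and in 36.4% of all 27025 promoters searched in the same way. A run of at least 8 bases was found in 36.4% of the members and 9.09% of all promoters. Such a match is a description of the letters around an annotated start, which can lie some bases away from the start used in the gut. The windows below are a selection from the members named in the results, with the longest such run in capitals. The first base of the transcript is base 16.

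Rpl12 (chr2:32961697-32961726, plus strand): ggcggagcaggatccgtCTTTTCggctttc
Rpl14 (chr9:120571502-120571531, plus strand): gggcgggCCCTCTCTCTTCTCgctgagcgc
Rps18 (chr17:33955651-33955680, minus strand): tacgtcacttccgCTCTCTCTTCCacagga
Rpl35 (chr2:39005117-39005146, minus strand): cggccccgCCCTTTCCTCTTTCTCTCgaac
Rpl38 (chr11:114668565-114668594, plus strand): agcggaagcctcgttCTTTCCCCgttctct
Rps21 (chr2:180257364-180257393, plus strand): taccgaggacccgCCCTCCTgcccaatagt
Rps27l (chr9:66946071-66946100, plus strand): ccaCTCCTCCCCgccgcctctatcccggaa
Rpl36al (chr12:69184053-69184082, minus strand): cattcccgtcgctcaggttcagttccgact
Rpl7l1 (chr17:46782642-46782671, minus strand): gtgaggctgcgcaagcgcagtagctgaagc

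The first 3 belong to members with some of the largest differences between stem-gated and enterocyte-gated cells, and the last 3 to the members with the smallest. Rpl35, Rpl38 and Rps21 are members whose levels were higher in both allogeneic libraries in every class. In these windows Rpl36al and Rpl7l1 hold no run of the searched kind, and the run of Rps27l lies wholly before the annotated start. Windows of other named members are not printed. Among them Rpsa, Rplp0, Rpl22 and Rpl41, for example, hold no run, while Rplp2, Rps26 and Rps27 hold one. Rpsa differed more between stem-gated and enterocyte-gated cells than the median member. A relation of the run with that difference was not tested.

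Ribosomal protein genes took up about 1 in 4 UMIs of the stem-gated cells and a small part of those of the enterocyte-gated cells. Their share of UMIs in stem-gated cells was 25.8%, 25.3%, 26.2% and 25.6%. In enterocyte-gated cells it was 3.41%, 2.75%, 3.20% and 2.55%. Within each library the stem share was 7.56, 9.19, 8.20 and 10.1 times the enterocyte share. Cycling-gated cells came close to the stem-gated cells, with 22.5%, 22.3%, 23.0% and 24.7%. Goblet-gated cells, the mucus producers, held 17.8%, 16.9%, 20.1% and 16.4%. Shares of enteroendocrine-gated cells (hormone cells) and tuft-gated cells (chemosensory cells) lay between 17.9% and 22.3%. Paneth-gated cells, which secrete antimicrobial peptides, held 12.3%, 10.7%, 14.3% and 17.2%. The spread was also wide from cell to cell: the interquartile range of Paneth-gated cells ran from 5.66% to 19.6% in syngeneic 1 and from 11.7% to 23.6% in allogeneic 2. Stem-gated cells were far tighter, from 24.1% to 28.6% in syngeneic 1. A share of UMIs falls when other mRNAs are abundant, so these values describe the makeup of the counted RNA and not the number of ribosomal mRNAs per cell.

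**Figure D1:**
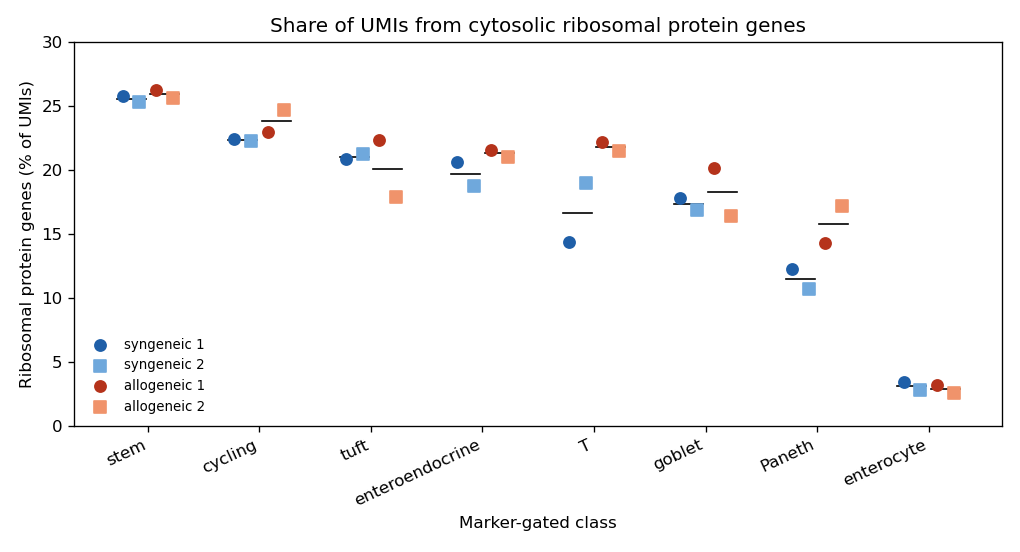
Share of UMIs from the 86 ribosomal protein genes (y axis, percent, from 0) for each marker-gated class (x axis); each point is a library and each short line the mean of the 2 libraries of a group. Stem-gated cells lie at 25.3% to 26.2% and enterocyte-gated cells at 2.55% to 3.41%, and the groups separate in the cycling, enteroendocrine, T and Paneth classes.

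Nearly every ribosomal protein gene was higher in stem-gated than in enterocyte-gated cells. With library as a block, edgeR's quasi-likelihood test with Benjamini-Hochberg (BH) adjustment over all genes called 82 of 83 members higher (98.8%) and 0 lower at an adjusted p under 0.05. Over all 8861 genes tested, 38.3% were called higher and 37.8% lower. The median log2 fold change was 2.48 for the members and 0.02 for all genes. All 83 members had a higher CPM in the stem-gated cells in each of the 4 libraries. CPM is scaled by library totals, and on that scale 4714 of 8861 genes were called higher by edgeR. The share of all genes higher in each library was not counted. Large subunit genes had a median of 2.45 (48 of 48 called higher) and small subunit genes a median of 2.56 (32 of 33 called higher), leaving out Rps19bp1 and Rpl7l1.

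At the top stood 3 large subunit genes. Rpl12, whose protein sits at the base of the stalk, had 2559, 2450, 2766 and 1664 CPM in stem-gated cells and 141, 105, 142 and 75.4 CPM in enterocyte-gated cells. Its log2 fold change was 3.69 (standard error, SE, 0.15; BH-adjusted p = 6.33e-10). Rpl3, a core protein near the peptidyl transferase centre, had 3263, 2794, 3438 and 2223 CPM against 215, 151, 164 and 80.8 CPM, a log2 fold change of 3.65 (SE 0.16; BH-adjusted p = 1.04e-09). In both genes allogeneic 2 was the lowest library in each class, and the classes did not overlap. Rpl14 followed with a log2 fold change of 3.45, and among small subunit genes Rps18 led with 3.20.

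The stalk, which recruits translation factors, stood near the middle of the set. Rplp0, its base, had 6055, 5318, 5294 and 4880 CPM in stem-gated cells and 737, 518, 717 and 537 CPM in enterocyte-gated cells, a log2 fold change of 2.44 (SE 0.15). Its partners Rplp1 and Rplp2 were higher by 2.17 and 2.47 on the log2 scale. Rpsa, a small subunit protein also known as the laminin receptor, was higher by 3.17, from 440, 332, 469 and 458 CPM in enterocyte-gated cells to 6141, 5693, 6377 and 6039 CPM in stem-gated cells.

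The 3 members that differed least were the copies Rps27l and Rpl36al and the row Rpl7l1. Rps27l, a copy of Rps27 known as a p53 target, had 503, 604, 607 and 956 CPM in stem-gated cells and 377, 383, 283 and 462 CPM in enterocyte-gated cells. It was the single member not called, with a log2 fold change of 0.13 (SE 0.15; edgeR BH-adjusted p = 0.45). The parent gene Rps27 had a log2 fold change of 2.08 (SE 0.17). Rpl36al, a copy of Rpl36a, was higher by 0.99 (SE 0.14), from 166, 159, 117 and 174 CPM to 490, 438, 399 and 639 CPM, while Rpl36a was higher by 3.08 (SE 0.15). Rpl7l1 was higher by 1.20 and its relative Rpl7 by 2.41. Rpl22l1, the paralog of Rpl22, was higher by 1.88 (SE 0.15), against 2.63 (SE 0.16) for Rpl22. In all 4 pairs the copy or relative had the smaller fold change; the differences within pairs were not tested. Reads of such near-identical genes, and of their many processed pseudogenes, can be assigned to the wrong copy, so these values are less certain than those of single-copy genes.

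**Figure D2:**
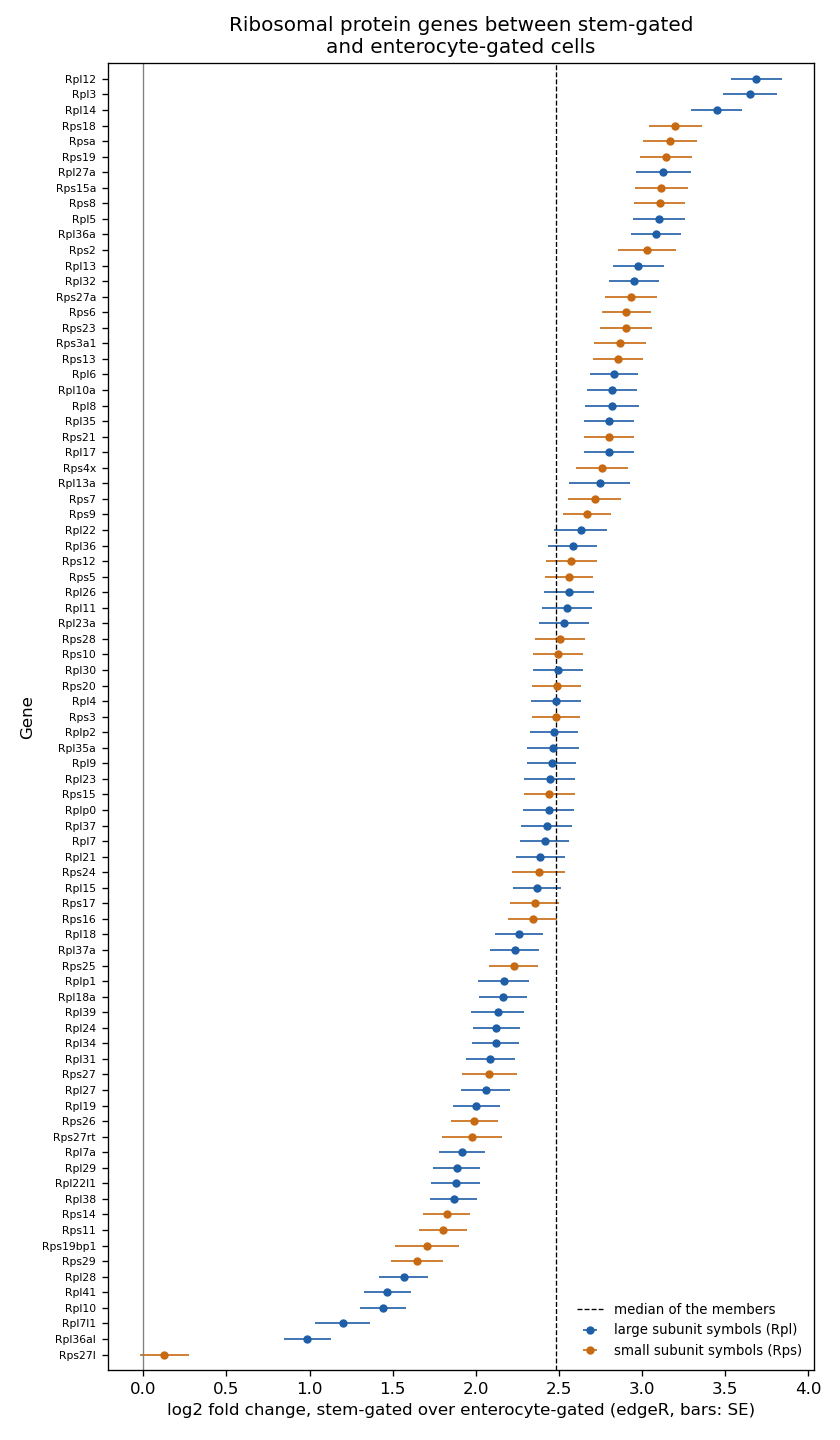
Log2 fold change, stem-gated over enterocyte-gated cells (x axis), for the 83 tested members (y axis, ranked), with points from edgeR over 4 libraries, bars of 1 SE, colours for large and small subunit symbols and a dashed line at the median of 2.48. Rpl12 is highest at 3.69, Rps27l is lowest at 0.13, and Rpl36al and Rpl7l1 stand next to it.

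The set did not move as a block. When the total of the members was used as library size, so that each gene was compared with the other ribosomal protein genes, 25 members were called relatively higher and 19 relatively lower in stem-gated cells (9.6% and 78.9% of all genes under that scaling). Rpl12 and Rpl3 stayed highest, at 1.25 and 1.21 on the log2 scale, and Rps27l and Rpl36al lowest, at -2.32 and -1.45. Measured against the members' total, Rplp0, Rplp1, Rpl7, Rpl22l1, Rps27 and Rpl7l1 also had values below 0. This scaling places the members around 0 (median 0.04), so some must fall below it. For Rplp0 and Rpl7 the values were so near 0 that their sign says little. With library totals in place of TMM factors, 83 members were called higher and the median of all genes moved from 0.02 to 0.68, which puts the members' median of 3.16 at a similar distance above it.

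Genes of the same pathway followed the same direction in part. Of 17 translation factors and other genes with TOP mRNAs, 17 were called higher in stem-gated cells, with a median log2 fold change of 2.09. The elongation factor gene Eef1a1 was higher by 2.22 and Tpt1, a very abundant growth-related mRNA, by 0.36. Against the members' total both had values below 0. All 32 ribosome assembly genes were called higher, with a median of 4.05. Nop56, a core protein of the particles that modify ribosomal RNA, had 151, 167, 171 and 144 CPM in stem-gated cells and between 1.13 and 2.70 CPM in enterocyte-gated cells. Nucleolin (Ncl) was higher by 3.91 and fibrillarin (Fbl) by 4.94. Of 77 mitochondrial ribosome genes tested, 63 were called higher and 5 lower, with a median of 1.05. The 13 mitochondrially encoded genes had a median of -1.06, with 12 called lower.

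Of 17 regulators of ribosome production tested, 5 were called higher and 4 lower in stem-gated cells, smaller shares than the 38.3% and 37.8% of all genes. Myc, the transcription factor known to drive ribosome production, had 88.3, 77.1, 67.0 and 72.2 CPM in stem-gated cells, and 2.49, 0.565, 0 and 0.291 CPM in enterocyte-gated cells. Larp1 was higher by 1.78 on the log2 scale (-0.66 against the members' total). Mdm2, the p53 ligase that free ribosomal proteins bind, was lower by a log2 fold change of -1.30. Eif4ebp1, a repressor of cap-dependent translation under mTOR, had a log2 fold change of -0.90 under TMM scaling (edgeR adjusted p = 0.0298). In CPM, which is scaled by library totals, the libraries differed in direction. The 2 scales differ here: the median log2 fold change of all genes was 0.02 under TMM and 0.68 with library totals. Both syngeneic libraries had higher values in stem-gated cells, with 58.2 and 62.7 CPM against 38.9 and 45.2 CPM in enterocyte-gated cells. Both allogeneic libraries had lower ones, with 54.1 and 74.9 CPM against 110 and 129 CPM. Rack1, a small subunit protein gene that carries another kind of symbol, was called higher (2.84). Fau, also outside the symbol rule, whose product gives the small subunit protein eS30, had 3313, 3283, 3177 and 3852 CPM in stem-gated and 2405, 2198, 1940 and 2266 CPM in enterocyte-gated cells. Its fitted log2 fold change was -0.05 (SE 0.14; edgeR BH-adjusted p = 0.759); with library totals in place of TMM it was 0.63.

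Paneth-gated and stem-gated cells differed little per gene under TMM scaling. The edgeR test with a library block called 2 members higher in Paneth-gated cells, Rps27l (log2 fold change 0.40, SE 0.07) and Rpl41 (0.22, SE 0.06), and 39 lower. Over all genes, 14.4% were called higher and 14.8% lower. The median log2 fold change was -0.16 for the members and -0.05 for all genes. Rpl7l1 had the lowest value (-0.40), then Rps26 (-0.32) and Rps18 (-0.28). In Rps18 the Paneth-gated values of 1615, 1427, 1788 and 1796 CPM all lay below the stem-gated values of 3715, 3616, 3740 and 2954 CPM. The stalk genes Rplp0, Rplp1 and Rplp2 were not called. This result rests on the scaling and on the block: DESeq2 called 1 member, edgeR without the library block called 0 (0 also at an unadjusted p under 0.05), and library totals called 83 lower, with the median of all genes at -0.87. Of all genes these fits called 11%, 6.35% and 82.9%, in that order. Leaving out a library left 9 (without syngeneic 1), 13 (without syngeneic 2), 21 (without allogeneic 1) or 29 (without allogeneic 2) members called. These were 10.8%, 15.7%, 25.3% and 34.9% of the members, against 20.3%, 21.8%, 21.9% and 26.0% of all genes.

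T-gated cells had 5 members lower than epithelial cells of the same libraries and 0 higher, in edgeR's test with a library block. Over all genes, 19.9% were called lower and 9.28% higher. The 5 were Rpl29 (log2 fold change -1.24, edgeR adjusted p = 0.00032), Rps27l (-1.21), Rpl26 (-0.84), Rps2 and Rps18 (both -0.75). For Rpl29 the CPM of T-gated cells lay far below that of epithelial cells only in the allogeneic libraries. In syngeneic 1 it was slightly above and in syngeneic 2 somewhat below, as the values given further on show. Rps27l had 409, 429, 239 and 401 CPM in T-gated cells and 517, 558, 656 and 805 CPM in epithelial cells, with no overlap. The call count rests on few syngeneic T-gated cells and moved with the setting. It was 0 members without allogeneic 1 or without allogeneic 2, 2 without syngeneic 2 and 7 without syngeneic 1. In that order these were 0%, 0%, 2.41% and 8.43% of the members, against 8.02%, 14.3%, 22.3% and 32.6% of all genes.

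Allogeneic and syngeneic recipients were compared within each class, which asks whether ribosomal protein genes changed in graft-versus-host disease at day 7. No member passed the test in any of the 9 cell groups: edgeR called 0 of 83, and DESeq2 also called 0, in all epithelial cells and in the stem, cycling, enterocyte, Paneth, goblet, enteroendocrine, tuft and T-gated classes. Of all genes tested, edgeR called 0.175%, 0.825%, 2.63%, 2.55%, 0.815%, 0.31%, 0.609%, 0.353% and 0.0276% in that order. The members with an unadjusted p under 0.05 numbered 0, 5, 3, 2, 3, 4, 4, 2 and 6. At that limit stood 10.0%, 8.03%, 13.6%, 16%, 8.23%, 7.3%, 6.35%, 7.31% and 6.29% of all genes. The smallest adjusted p of a member was 0.215, in enterocyte-gated cells. With 2 pools a group the median SE of a member was 0.31 in epithelial cells, 0.24 in stem-gated and 0.39 in T-gated cells. Differences well above that size also went uncalled: the highest member log2 fold changes there were 0.73, 0.78 and 1.04, in the same order. The count of 0 depends on both allogeneic pools being in the fit. Without allogeneic 1, edgeR called 26 members in all epithelial cells, 61 in cycling-gated and 32 in goblet-gated cells; without allogeneic 2 it called 16, 10 and 17. Many genes were called in those fits. Without allogeneic 1 they were 31.3%, 73.5% and 38.6% of the members against 45.5%, 29.6% and 28.1% of all genes, in the same order; without allogeneic 2 they were 19.3%, 12% and 20.5% of the members against 22.7%, 11.7% and 10.7% of all genes. There a lone allogeneic pool is assumed to vary like the syngeneic pair. Without either syngeneic pool the count was 0 in every group.

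The share of UMIs from the members was higher in both allogeneic than in both syngeneic libraries in 4 classes, and no test was made on this sum. In Paneth-gated cells the mean was 11.5% ± 1.12 (SD, n = 2) in syngeneic and 15.8% ± 2.06 (SD, n = 2) in allogeneic libraries. In T-gated cells it was 16.7% ± 3.29 (SD, n = 2) and 21.8% ± 0.496 (SD, n = 2), with 11 cells behind the lowest library. Cycling-gated cells had 22.4% ± 0.103 and 23.8% ± 1.22 (SD, n = 2 each), and enteroendocrine-gated cells 19.7% ± 1.34 and 21.3% ± 0.373 (SD, n = 2 each). Under 7 other ways of counting the share, the groups stayed apart in all 7 in the Paneth, T and cycling classes. For T-gated cells, syngeneic 1 held 7 cells with the lower mitochondrial limit and 9 with the higher gate score. With limits on UMIs per cell, syngeneic 1 held 5 T-gated cells and syngeneic 2 held 8. The tests asked for at least 10 cells per library, so these settings say little about T-gated cells. In enteroendocrine-gated cells the groups overlapped in 5 of the 7. With mitochondrial UMIs left out, for example, the shares were 22.6%, 20.3%, 23.4% and 22.5%. With the mean of the per-cell shares they were 19.7%, 17.1%, 19.6% and 19.1%. The separation in enteroendocrine-gated cells thus rests on the setting. Stem-gated cells differed by 0.388 percentage points, within the spread of the pools (25.5% ± 0.344 and 25.9% ± 0.445, SD, n = 2 each). The enterocyte, goblet and tuft classes overlapped between groups. Over all epithelial cells the share was 16.7%, 15.2%, 19.9% and 15.5%, so the groups overlapped, and the libraries also held different mixes of classes: 1814 of 4544 epithelial cells of allogeneic 2 were enterocyte-gated, against 362 of 1767 in allogeneic 1.

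Beside the Paneth-gated shares, the depth of these cells moved too. Their median was 8470, 7883, 6114 and 5763 UMIs per cell. Among Paneth-gated cells of 2000 to 10000 UMIs the members' share still was 12.9%, 10.4%, 14.8% and 16.8%, and the difference of the group means was 4.19 percentage points, against 4.29 in all Paneth-gated cells. The gate markers held 38.4%, 43.2%, 35.2% and 27.6% of the UMIs of Paneth-gated cells. With these UMIs left out, the members' share was 19.9%, 18.8%, 22.1% and 23.8%. The difference of the group means was then 3.57 percentage points, on a larger share in both groups, so it was smaller in relative terms. In this class 65 of 83 members (78.3%) had both allogeneic CPM values above both syngeneic ones and 0 had both below, against 32.3% and 8.17% of all genes. Relative to TMM scaling the median log2 fold change of the members was 0.21, and that of all genes 0.03.

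The same count of levels that did not overlap was smaller elsewhere. It was 22 members above (26.5%) and 12 below in stem-gated cells, where 14.4% of all genes lay above and 22.1% below. It was 27 above (32.5%) in cycling-gated cells against 16.1% of all genes, and 20 above (24.1%) in goblet-gated cells against 13%. In enterocyte-gated cells 12 lay above (14.5%) and 14 below (16.9%), against 14.5% and 33.3% of all genes, and in tuft-gated cells 8 above (9.64%) and 14 below (16.9%) against 14.6% and 21.8%. In enteroendocrine-gated cells 29 lay above (34.9%) and 2 below (2.41%), against 18.2% and 16.5% of all genes. In T-gated cells 49 lay above (59.0%), against 22.9% of all genes.

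A few members had the highest allogeneic values in one class after another. Rpl35, Rpl36, Rpl38 and Rps21 were higher in both allogeneic libraries in each of the 8 gated classes, 4 of 83 members (4.82%), against 23 of the 2328 genes tested in all 8 classes (0.988%). The classes come from the same 4 libraries, so they do not repeat the observation. Rpl31, Rpl34, Rpl37, Rpl39, Rpl41 and Rplp2 were higher in 7 of the 8 classes, and no member was lower in 7 or more. The share of all genes higher in 7 of the 8 classes, or lower in 7 or more, was not counted.

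Rpl38, a small protein of the large subunit known for its part in the translation of Hox mRNAs, had 1813, 2065, 3092 and 3101 CPM in stem-gated cells. Its log2 fold change there was 0.78 (SE 0.25; edgeR BH-adjusted p = 0.293), and the groups did not overlap. In Paneth-gated cells Rpl38 had 1000, 962, 1807 and 2178 CPM, a log2 fold change of 0.81 (SE 0.29; BH-adjusted p = 0.439). In enterocyte-gated cells its level was lower, at 372, 357, 496 and 468 CPM, and the log2 fold change 0.59 (adjusted p = 0.398).

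Rpl36, also of the large subunit, had 1494, 1517, 2542 and 2272 CPM over all epithelial cells, a log2 fold change of 0.72 (SE 0.32; edgeR BH-adjusted p = 0.542). Its syngeneic values lay close together while the allogeneic values were spread. In cycling-gated cells Rpl36 had 1939, 2181, 2843 and 3569 CPM (log2 fold change 0.75, adjusted p = 0.324).

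Rps21, of the small subunit, had 1459, 1529, 2738 and 1928 CPM over all epithelial cells (log2 fold change 0.66, edgeR adjusted p = 0.58), with allogeneic 1 well above allogeneic 2. Rpl39, which lines the exit tunnel of the ribosome, led in enterocyte-gated cells, with 483, 445, 755 and 795 CPM, a log2 fold change of 0.94 and an adjusted p of 0.215. At the other end over all epithelial cells were Rps9, Rpl5 and Rpl7, at -0.12, -0.10 and -0.10. The stem-cell and enterocyte effects were also compared with each other by an interaction term, and 0 of 83 members were called by edgeR or by DESeq2, against 2.47% of all genes by edgeR. In edgeR 1 member had an unadjusted p under 0.05, against 13.7% of all genes. Rpl13a had the smallest adjusted p, 0.291, with a difference of -0.70 on the log2 scale.

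**Figure D3:**
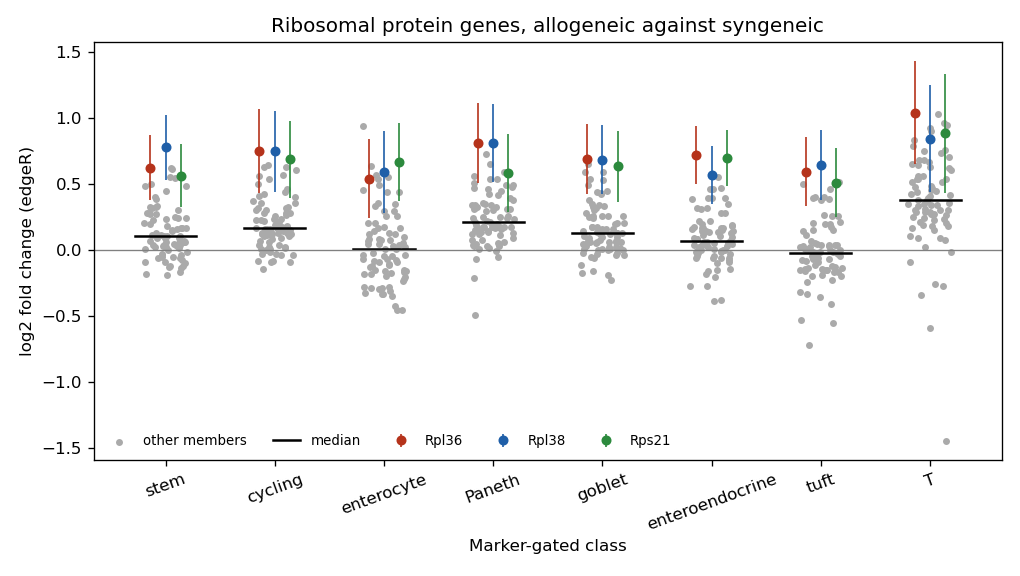
Log2 fold change, allogeneic over syngeneic (y axis, edgeR), of the 83 tested members in each marker-gated class (x axis); grey points are members, black lines medians, and coloured points with bars of 1 SE are Rpl36, Rpl38 and Rps21. The medians run from -0.02 in tuft-gated to 0.38 in T-gated cells, and no member passed the test. The coloured genes lie above the median in each class. They were coloured for their high allogeneic values in these same data, so this position is not a further observation.

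In T-gated cells Rpl29, a large subunit protein, stood apart from the other members. It had 1928, 1450, 611 and 588 CPM, from 66, 88, 284 and 239 UMIs, a log2 fold change of -1.45 (edgeR adjusted p = 0.497). Over all epithelial cells Rpl29 had 1885, 1635, 1782 and 1888 CPM, so the syngeneic T-gated values were near the epithelial level and the allogeneic ones below it. Whether RNA of epithelial cells adds to the counts of the few syngeneic T-gated cells was not tested. Rpl36 was highest there, with a log2 fold change of 1.04 and 1286, 1631, 2776 and 3020 CPM. Rpl41, which encodes the shortest protein of the ribosome, had 2074, 2884, 4875 and 4900 CPM, a log2 fold change of 1.03. Donors were BALB/c in the allogeneic libraries and of the recipients' own strain in the syngeneic ones. T-gated cells of donor origin would thus differ in strain between the groups. Their origin was not tested, nor was the part of donor strain in any group difference of T-gated cells given here.

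Members with short transcripts tended to have the higher allogeneic values. Across the 83 members Spearman's correlation of transcript length (median of the coding transcripts in GENCODE M21) with the log2 fold change was -0.48 in all epithelial cells, -0.44 in stem-gated, -0.45 in cycling-gated and -0.50 in Paneth-gated cells. The values are across genes that share the same libraries, and genes are not independent replicates. In epithelial cells the 15 members under 500 bases had a median log2 fold change of 0.41, the 53 members of 500 to under 1000 bases 0.13 and the 15 longer members 0.09. The 200 other genes under 500 bases had a median of 0.06. The contrast with other short genes differed by class: in stem-gated cells the medians were 0.32 and 0.18, in enterocyte-gated cells 0.29 and 0.15, in T-gated cells 0.56 and 0.22, and in tuft-gated cells 0.20 and 0.21. The same correlation with length appeared between the syngeneic libraries: for syngeneic 2 over syngeneic 1 it was -0.55 in epithelial and -0.53 in stem-gated cells, and for allogeneic 2 over allogeneic 1 it was 0.02 and 0.05. In these cells the relation with length was thus of like size between the syngeneic pools and between the groups; both ratios use the syngeneic libraries. In T-gated cells it was -0.14, over 82 members.

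**Figure D4:**
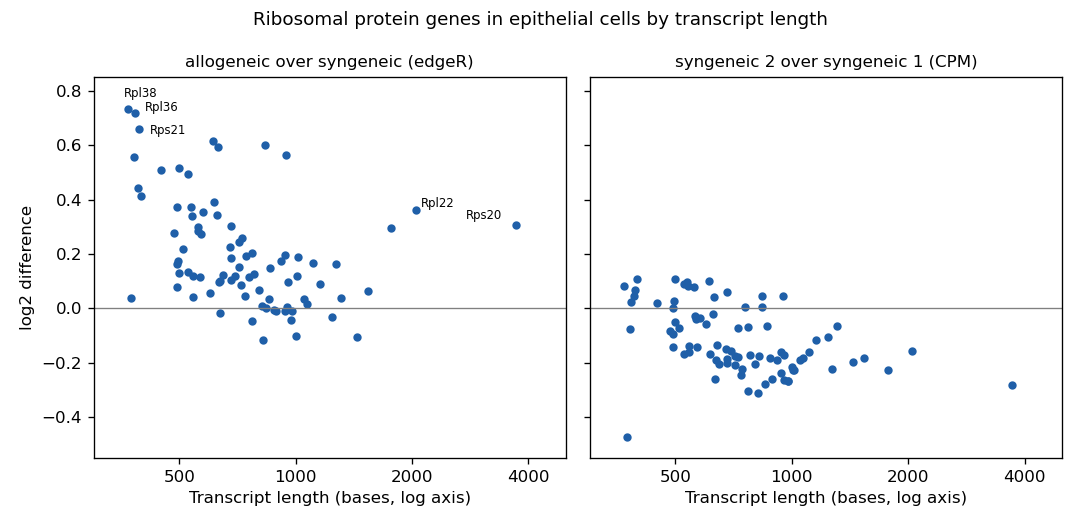
Transcript length (x axis, bases, log axis) against the log2 difference in epithelial cells (y axis) of the 83 tested members, allogeneic over syngeneic on the left (edgeR) and syngeneic 2 over syngeneic 1 on the right (CPM ratio). Rpl38, Rpl36 and Rps21, with short transcripts, are highest on the left, and the right panel also slopes downward with length (Spearman -0.48 and -0.55).

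Other genes of the pathway also gave few calls between the transplant groups. Over the 9 cell groups, edgeR and DESeq2 each called 0 in 152 tests of translation factors and TOP genes and 0 in 236 tests of ribosome assembly genes. In edgeR 6 and 3 of these tests had an unadjusted p under 0.05. Of all genes, edgeR called from 0.0276% to 2.63% per group. At least 6.29% of all genes in each group had an unadjusted p under 0.05 in edgeR. A gene counts once for every group in which it was tested. All epithelial cells contain the gated epithelial classes, so these tests are not independent. Among the regulators Ddit4, an inhibitor of mTOR, was called higher in cycling-gated cells, with 14.9, 11.8, 32.0 and 23.8 CPM (log2 fold change 1.13, edgeR adjusted p = 0.0494). Its direction was not particular to that class. In every other group, without a call, both allogeneic levels also lay above both syngeneic ones. In stem-gated cells, for example, they were 21.8, 15.4, 67.0 and 31.3 CPM. The groups come from the same libraries. The call was lost in 8 of 12 alternatives, DESeq2 included, with an adjusted p from 0.101 (DESeq2) to 0.595 (without syngeneic 2); with a gate score of at least 1 the log2 fold change was 0.546 (adjusted p = 0.516). Eif4ebp1 was called higher in enterocyte-gated cells, with 38.9, 45.2, 110 and 129 CPM (log2 fold change 1.72, adjusted p = 0.023). This call was lost without syngeneic 1 (adjusted p = 0.342) and without syngeneic 2 (adjusted p = 0.112), and with a mitochondrial limit of 10% (adjusted p = 0.0991). In enterocyte-gated cells the median mitochondrial share per cell was 10.6%, 10.4%, 14.4% and 7.96%, highest in allogeneic 1, and its part in these results was not tested.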

How the data were processed

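The authors deposited raw UMI counts per gene and cell for 4 libraries. The submitters' processing notes name Cell Ranger 2.1.1 and mm10; per the file headers the software version was 3.1.0; the annotation release is not given in the sources used here. Kept cells had 500 or more genes, 1000 or more UMIs and no more than 20% mitochondrial UMIs, and Scrublet's 116 doublets (0.944% of 12285 cells) were removed. A cell took the class with the highest mean z-score of its markers, if at least 0.5; the 266 B-, myeloid- and erythroid-gated cells were left out. B- and myeloid-gated cells had library medians of 3922 to 5573 UMIs, a depth near that of epithelial cells, so some may be epithelial cells. The library titles begin with KO, but describe no knockout. Counts were summed per library and class and tested with edgeR 4.0.16 (quasi-likelihood, robust, filterByExpr, TMM). At least 10 cells per library were asked for, with Benjamini-Hochberg adjustment over all genes and a threshold of 0.05. The procedure was run on simulated data. The changes planted there were larger than any member's between the transplant groups in the fits of all 4 libraries. Recovery of smaller changes was not tested. DESeq2 1.42.0 was an alternative. Named genes are the 3 highest and lowest members of a comparison, up to 10 called members per direction by adjusted p, the stalk genes and Rpsa, and copies with their parents; Rpl35, Rpl29 in epithelium and the pathway genes named were picked after their values were seen. Members and lists were chosen with earlier results of these data known. Gene positions are those of GENCODE M21 and RefSeq. Sequences come from RefSeq, GRCm38.p6. Spread between pools is that of 2 pools per group. A gene of the pathway lists is not reported here, so the short list it belonged to is given by named genes and not by counts.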

Additional observations from a re-analysis of the deposited data

Results flagged for a closer look

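The effect of the allogeneic transplant on Eif4ebp1, the translation repressor in the list of regulators, differed between stem-gated and enterocyte-gated cells by a test of the difference itself. The interaction was -1.607 on the log2 scale, stem minus enterocyte (edgeR adjusted p = 2.52e-04). Its level was 58.2, 62.7, 54.1 and 74.9 CPM in stem-gated cells and 38.9, 45.2, 110 and 129 CPM in enterocyte-gated cells. The groups separated in the enterocyte-gated and overlapped in the stem-gated cells. The interaction lost its call without syngeneic 1 (adjusted p = 0.0997) and with a mitochondrial limit of 10% (-0.99, adjusted p = 0.17). Eif4ebp1 is not a ribosomal protein gene.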

How the results depend on the processing

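No paired analysis was possible because the labels give the libraries no replicate numbers, and the numbers used here are only names.

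Of the values that answer a comparison, 213 stayed within the tolerance (1.5 times for a count, 1 SD of the pools for a share difference) and 34 moved. Within that tolerance or outside it, the allogeneic minus syngeneic share changed sign in 10 of 99 alternatives: 4 in enterocyte-gated cells, 2 each in all epithelial and goblet-gated cells and 1 each in stem-gated and tuft-gated cells. Over all epithelial cells it went from 1.79 to -0.168 with the mean of the per-cell shares, and in goblet-gated cells from 0.917 to -0.274 with a gate score of at least 1. The allogeneic minus syngeneic share of UMIs in stem-gated cells became -0.02269 percentage points without mitochondrial UMIs, and in enterocyte-gated cells 1.78 with a mitochondrial limit of 10%, where 1 member was called and allogeneic 1 kept 43 enterocyte-gated cells. Leaving out each library moved the share difference between -0.402 and 3.99 in all epithelial cells, 0.0727 and 0.703 in stem-gated, 0.572 and 2.30 in cycling-gated, -0.538 and 0.122 in enterocyte-gated, 2.84 and 5.75 in Paneth-gated, -0.938 and 2.77 in goblet-gated, 0.653 and 2.55 in enteroendocrine-gated, -3.18 and 1.28 in tuft-gated and 2.84 and 7.49 in T-gated cells. Members called between the transplant groups, leaving out each library, ranged from 0 to 26 in all epithelial and in stem-gated cells, 0 to 61 in cycling-gated, 0 to 25 in enterocyte-gated, 0 to 20 in Paneth-gated, 0 to 32 in goblet-gated, 0 to 1 in enteroendocrine-gated and 0 to 31 in tuft-gated cells, 0 in T-gated cells, and 0 to 1 for the interaction. Without an allogeneic library edgeR also called 2.59% to 45.5% of all genes in the epithelial groups. Stem against enterocyte gave 82 in each, and 44 with the member total as library size. Paneth against stem ranged from 9 to 29, and gave 1 with DESeq2, 83 with library totals, 8 with the member total and 0 with no library block. T against epithelium ranged from 0 to 7, with 2 in DESeq2, 3 with library totals, 2 with TMM without the members and 2 with no library block. These T-gated fits called from 8.02% to 32.6% of all genes. The causes were not tested.

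Signs of single genes changed in 36 cases. With the member total, which compares members with each other, stem against enterocyte became -2.32 for Rps27l, -1.45 for Rpl36al, -1.24 for Rpl7l1, -0.004 for Rplp0, -0.27 for Rplp1, -0.028 for Rpl7, -0.56 for Rpl22l1, -0.36 for Rps27, -0.66 for Larp1, -0.22 for Eef1a1 and -2.084 for Tpt1. Fau became 0.008 (DESeq2), 0.63 (library totals) and 0.17 (mitochondrial limit 10%), and ran from -0.046 (without allogeneic 1) to 0.037 (without syngeneic 1). With library totals Paneth against stem became -0.68 for Rpl36al, -0.58 for Rpl41 and -0.41 for Rps27l, and the allogeneic effect in Paneth-gated cells 0.009 for Rps19bp1 and 0.14 for Rpl7 (0.045 in cells of 2000 to 10000 UMIs). Leaving out each library, the allogeneic effect ran from -1.45 to 0.042 for Rpl7l1 and -0.901 to 0.217 for Rps19bp1 in Paneth-gated cells, -0.328 to 0.12 for Rps4x in cycling-gated, -0.558 to 0.025 for Rps19bp1 and -0.473 to 0.046 for Rpl5 in goblet-gated, -0.339 to 0.081 for Rpl5 and -0.243 to 0.01 for Rpl7 in all epithelial, and -2.27 to 0.165 for Rps27rt in enteroendocrine-gated cells. Rpl13a between T-gated and epithelial cells ran from -0.002 to 0.61. With a mitochondrial limit of 10% the effect became 0.73 for Rpl3, 0.33 for Rpl8 and 0.47 for Rpl27a in enterocyte-gated cells, and the interaction -0.21 for Rpl27a. With no filter Rps27l in T-gated cells became 0.086. Not run for want of cells were T-gated fits with a mitochondrial limit of 10% (7 cells), a gate of 1 (9) or 2000 to 10000 UMIs (5).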
